A study of Rattus norvegicus with 6 samples.

Results

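Sst, Hhex, Rbp4, Ppy, Pyy and Ghrl are 6 genes of the less abundant endocrine cells of the pancreatic islet, the delta, PP and epsilon cells. They were followed through every accessible site (ACS) for which the deposited annotation named them as the nearest gene, which gave 18 of the 101603 distinct ACS of the table. Sst had 6 of these ACS, Hhex 4, Rbp4 3, Pyy 3 and Ghrl 2, and Ppy had 0.

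ATAC-seq, in which the Tn5 transposase cuts and tags open chromatin, was performed on islet cells of Sprague-Dawley rats at P10 (postnatal day 10) and in adults of around P90, with 3 libraries per age. Each adult library came from a male rat, and each P10 library from a mix of a few pups, male and female, of a different litter, so that age, sex, pooling and the way the pancreas was digested cannot be told apart. The animals carried no transgene or treatment that the labels mention. The islet cells were not sorted, and delta, PP and epsilon cells are a minority among beta and alpha cells, so that fewer cells of a type and less open chromatin per cell cannot be told apart in these libraries.

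Delta cells secrete somatostatin, the product of Sst, which restrains the release of insulin and glucagon from neighbouring cells. Hhex encodes a homeodomain transcription factor needed to keep delta cells in their identity, and Rbp4 encodes the plasma carrier of retinol, whose transcript is enriched in delta cells as well as being abundant in liver. Ppy encodes pancreatic polypeptide, the hormone of PP cells, Pyy the related peptide YY, and Ghrl the appetite-stimulating hormone ghrelin of epsilon cells, which are frequent around birth and rare in adult islets. Hormone genes are often controlled both from the promoter next to the gene start and from enhancers that lie far from it, and both kinds of element appear as ACS.

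The promoters of the 4 genes that had an ACS within 1 kb of their start are shown because the genes differed widely in how much of their signal such ACS held. On Rn5 an ACS overlapped the start of Hhex and of Rbp4, whereas those of Sst and Pyy lay inside the gene, past the start. Each sequence runs 5′ to 3′ on the strand of the gene, from 250 bases before to 30 bases after the gene start of RefSeq in the GRCr8 build, and capitals mark matches to 5 motifs searched on both strands. The ACS were called on the older Rn5 build, so no position of an ACS is placed on these letters.

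Sst: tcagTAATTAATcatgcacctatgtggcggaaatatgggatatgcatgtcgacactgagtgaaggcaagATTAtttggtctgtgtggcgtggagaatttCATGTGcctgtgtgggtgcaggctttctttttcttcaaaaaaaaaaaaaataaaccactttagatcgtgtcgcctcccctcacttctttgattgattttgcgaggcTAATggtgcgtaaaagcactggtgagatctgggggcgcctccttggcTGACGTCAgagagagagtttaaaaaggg

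Hhex: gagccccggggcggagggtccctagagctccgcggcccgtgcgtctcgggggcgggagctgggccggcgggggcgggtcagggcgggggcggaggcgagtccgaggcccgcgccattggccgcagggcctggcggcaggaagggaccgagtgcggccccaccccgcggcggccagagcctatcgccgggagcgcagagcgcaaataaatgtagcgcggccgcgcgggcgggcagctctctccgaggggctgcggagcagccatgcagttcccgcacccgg

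Rbp4: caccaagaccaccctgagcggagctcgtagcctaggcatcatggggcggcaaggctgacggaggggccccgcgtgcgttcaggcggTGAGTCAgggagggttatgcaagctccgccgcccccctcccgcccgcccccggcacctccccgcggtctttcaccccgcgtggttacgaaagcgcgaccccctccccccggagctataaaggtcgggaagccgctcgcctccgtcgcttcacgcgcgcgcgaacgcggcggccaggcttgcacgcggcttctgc

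Pyy: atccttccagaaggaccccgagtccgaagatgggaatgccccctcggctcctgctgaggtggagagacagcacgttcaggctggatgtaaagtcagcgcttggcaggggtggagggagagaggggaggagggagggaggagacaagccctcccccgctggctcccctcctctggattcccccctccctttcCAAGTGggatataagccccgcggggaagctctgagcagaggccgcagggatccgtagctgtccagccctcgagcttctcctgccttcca

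The motifs were the cAMP response element TGACGTCA, the homeodomain core TAAT, the E-box CANNTG, the forkhead motif TGTTTNC and the AP-1 motif TGACTCA. The Sst promoter held the cAMP response element at bases 3 to 10 of the annotated gene, a motif found in 1.78% of 33469 promoters of the same length. It also held 5 homeodomain cores, counting both strands, some of which overlap in the run near its 5′ end, and 1 E-box, motifs present in 59.3% and 69.7% of promoters. The Rbp4 promoter held the AP-1 motif on the opposite strand, 164 to 158 bases before the start. The motif was present, at any position and on either strand, in 4.42% of promoters. The Pyy promoter held 1 E-box, and none of the 5 motifs was found in the Hhex promoter, whose GC content was 77.9% against 44.6% for Sst. Of the genes with no ACS within 1 kb of the start, the Ppy promoter held 1 forkhead motif, present in 20.05% of promoters, and the Ghrl promoter 1 E-box.

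Values per library are Tn5 integrations as CPM, a count scaled to the total over all ACS of the library, with TMM factors. The libraries held 7916919 to 11903909 integrations in adults and 13491534 to 21168463 in P10, so that the same CPM rests on more integrations in P10. Total sequenced reads overlapped between the ages, and integrations in ACS per sequenced read were lower in every adult library. This difference between libraries cannot be told apart from age. Following the limits of the study, an ACS was called Up (more open in adults) or Down (more open in P10) at a p-value under 0.05 and a Benjamini-Hochberg FDR under 0.2 over all ACS in the quasi-likelihood test of edgeR. Up and Down rest on the names of the count columns, which carry A or P and the replicate numbers of the labels (4 to 6 for adults, 1 to 3 for P10). Distances are as deposited, from the gene start to the edge of the ACS with the lower coordinate on Rn5, and classes are TSS (within 1 kb of a start), proximal (1 to 10 kb) and distal (beyond 10 kb).

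Of the 18 ACS, 2 were called Up, 5 Down and 11 were not called. The number of Down calls was 1 without P10 replicate 2, 2 without P10 replicate 3 and 3 without Adult replicate 6. Over all ACS the same fits gave 3285, 4232 and 5041 Down calls, against 6738 with all libraries. At an FDR under 0.05 there were 2 Down calls among the 18, and the 2 Up calls were made in each of these settings. With all 6 libraries and an FDR under 0.2, the test called 12.3% of all ACS Up and 6.63% Down. In the fit with all 6 libraries, the Down calls were 3 of 4 ACS of Hhex and 2 of 3 of Rbp4, the Up calls were 1 of 6 ACS of Sst and 1 of 2 of Ghrl, and Pyy had no call. The 3 adult libraries were all higher than the 3 P10 libraries in 2 of the 18 ACS and all lower in 6, against 13.8% and 10.9% of all ACS. The median log2 fold change of adult over P10 was -0.14 for the 18 ACS and -0.01 for all ACS, and 12 of the 18 were negative.

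**Figure D1:**
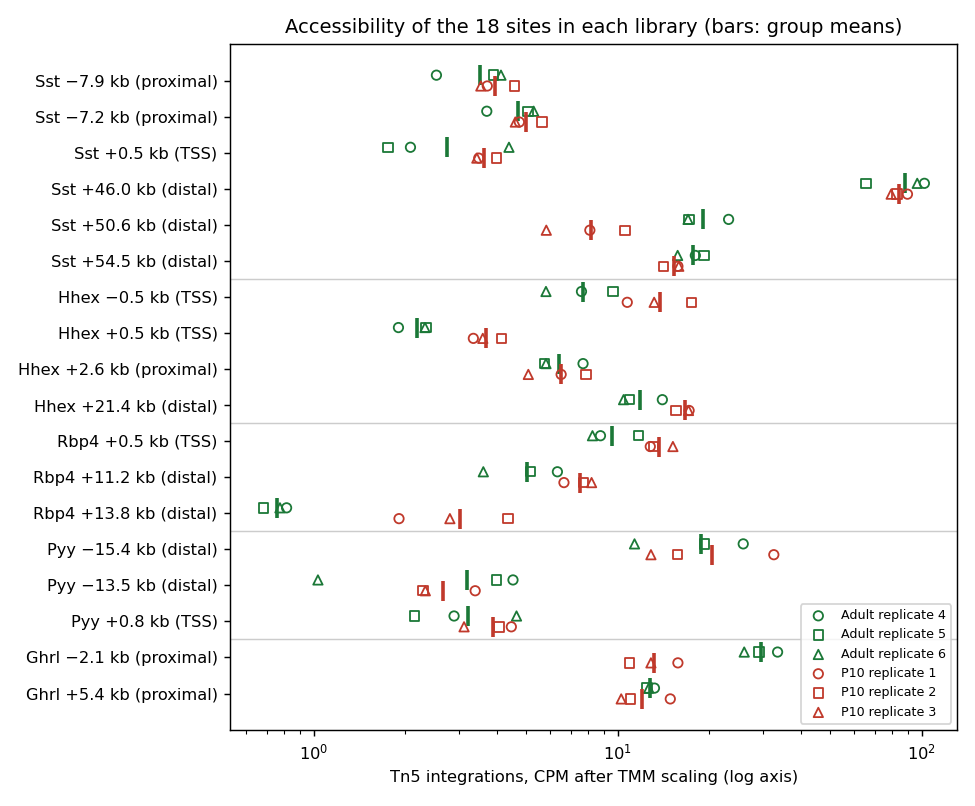
CPM after TMM scaling (log axis) of the 18 ACS in each of the 6 libraries, with adult in green, P10 in red, and a bar at each group mean. The ACS are named by gene, distance from the gene start and class. Adult and P10 libraries do not overlap in 8 ACS, among them the Sst ACS at 50.6 kb, the upstream ACS of Ghrl and all 3 ACS of Rbp4.

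By class, of the 5 TSS-class ACS of these genes, 0 were Up and 3 Down, where all 11055 TSS-class ACS of the table had 2.73% Up and 7.87% Down. Of the 8 distal ACS, 1 was Up and 2 Down, beside 13.8% and 6.45% of 80543 distal ACS. Of the 5 proximal ACS, 1 was Up and 0 Down, beside 11.2% and 6.71% of 10005.

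**Figure D2:**
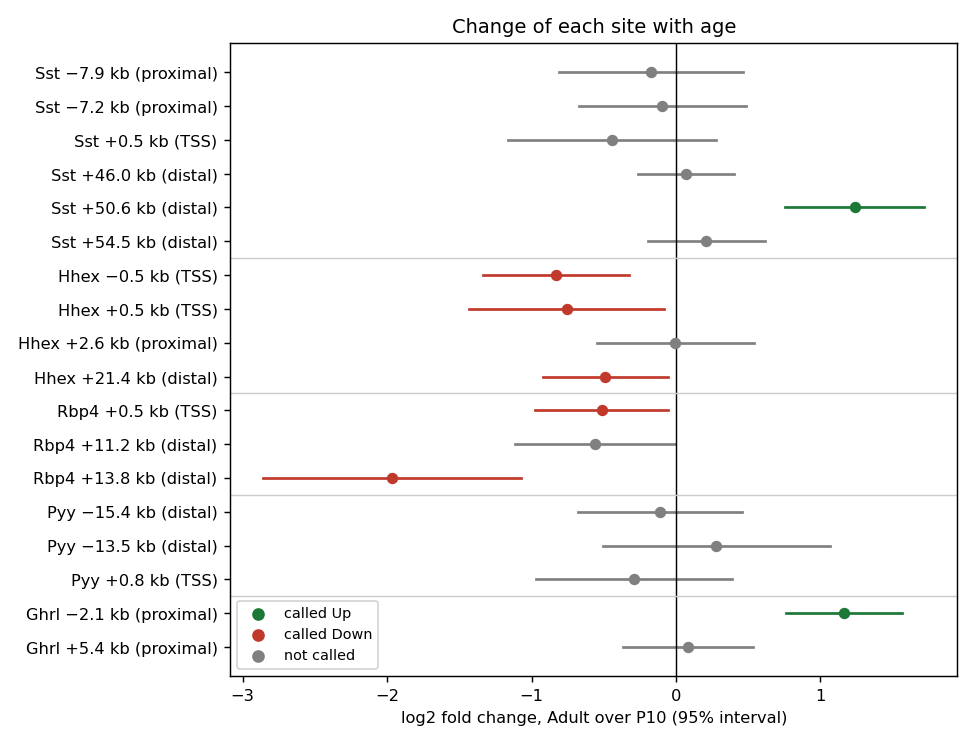
log2 fold change of adult over P10 for each of the 18 ACS with its 95% interval, from the quasi-likelihood test of edgeR, coloured by call. The Up ACS of Sst lies at 1.24 and that of Ghrl at 1.16, the lowest value is the Rbp4 ACS at 13.8 kb with -1.97, and the intervals of the 3 Pyy ACS span 0.

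Sst, the somatostatin gene, had its strongest signal far from the gene, in a cluster of 3 distal ACS downstream of it, of which 1 was called Up and the other two were not called. The ACS at chr11:80324906-80325183 (Rn5), 50.6 kb past the gene start and outside the gene, had 23.1, 17.1 and 17.0 CPM in Adult replicates 4, 5 and 6. In P10 replicates 1, 2 and 3 it had 8.09, 10.6 and 5.82 CPM. Every adult library was above every P10 library. Its log2 fold change was 1.24 (SE 0.24, 95% interval 0.75 to 1.72, FDR = 0.000846 by edgeR), a 2.36-fold higher accessibility in adults. It was called Up in all 6 fits that left out 1 library, with values from 1.03 to 1.44.

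The most open ACS of Sst, and of all 18, was its neighbour at chr11:80329583-80330479, 46.0 kb from the gene start. It had 102, 65.5 and 96.6 CPM in adults and 89.7, 82.9 and 79.2 CPM in P10. The 2 ages overlapped, and the log2 fold change was 0.07 (SE 0.16, 95% interval -0.26 to 0.40, FDR = 0.871 by edgeR). Per kilobase of ACS it reached 98.1 ± 21.9 CPM in adults and 93.6 ± 5.90 CPM in P10 (SD, n = 3), at the 99.1 and 99.3 percentile of distal ACS. This was one of the most accessible distal elements of the whole table at both ages, although it was assigned to a gene of a minor cell type by distance alone. The third ACS of the cluster, 54.5 kb from the start at chr11:80321030-80321519, had a log2 fold change of 0.21 (SE 0.20, FDR = 0.611).

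The Up ACS of Sst is separated by 4399 bp from the strongest ACS and by 3386 bp from the third, so its change could be read against neighbours in the same library, with no scaling between libraries. The log2 ratio of its count to that of the strongest neighbour was -2.19 ± 0.29 in adults and -3.40 ± 0.40 in P10 (SD, n = 3). Against the third ACS the ratio was 0.10 ± 0.26 in adults and -0.94 ± 0.51 in P10. In all 5 ratios to other ACS of Sst the adult libraries lay above the P10 libraries, with mean differences from 1.05 to 1.78. These ratios were formed after the call was known and are a description, with no test.

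The ACS at the Sst gene start was weak. It lay inside the gene at chr11:80375071-80375496, its near edge 41 bp past the start, and had 2.08, 1.75 and 4.38 CPM in adults and 3.49, 3.99 and 3.44 CPM in P10. The adult libraries spread on both sides of the P10 libraries, and the log2 fold change was -0.44 (SE 0.35, 95% interval -1.16 to 0.28, FDR = 0.526 by edgeR). Without Adult replicate 6, the highest adult library, it was -0.92 and was called Down. Per kilobase it had 6.43 ± 3.37 CPM in adults and 8.54 ± 0.72 CPM in P10 (SD, n = 3), at the 3.52 and 3.89 percentile of all TSS-class ACS. The contrast within the locus was therefore wide, with a TSS-class ACS near the bottom of its class and a distal ACS near the top of its own. The 2 proximal ACS upstream, at 7.2 and 7.9 kb, had log2 fold changes of -0.09 and -0.17 and no call.

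**Figure D3:**
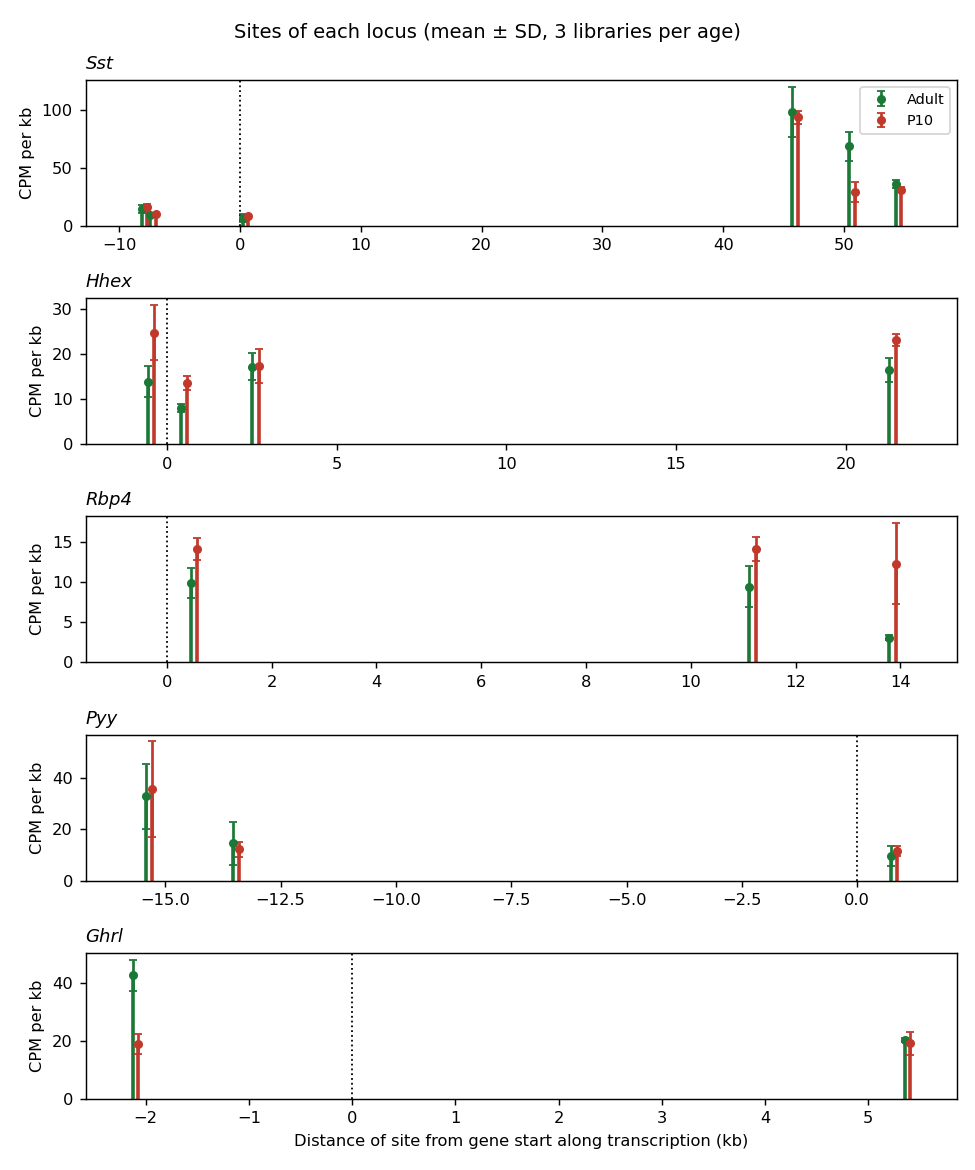
Accessibility per kilobase of ACS (CPM per kb, mean ± SD, n = 3 per age) against the distance of each ACS from the gene start in kb along the direction of transcription, 1 panel per gene, with the start as a dotted line. In Sst the 3 distal ACS reach 29.3 to 98.1 CPM per kb and the ACS at the start stays at 6.43 and 8.54, whereas the ACS over the starts of Hhex and Rbp4 reach 13.8 and 9.89 in adults and 24.8 and 14.2 in P10.

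Pyy, which encodes peptide YY, showed the same arrangement without a called change with age. Its strongest ACS was distal, 15.4 kb upstream at chr10:89853946-89854515, with 25.8, 19.3 and 11.3 CPM in adults and 32.6, 15.7 and 12.8 CPM in P10. The spread within each age was wider than the difference between the ages, and the log2 fold change was -0.11 (SE 0.28, 95% interval -0.68 to 0.46, FDR = 0.880 by edgeR). P10 replicate 1 was the highest library there. The same library had 317 CPM summed over the TSS-class ACS of 6 beta cell genes, where the lowest P10 library had 195 CPM and the adults 157 to 209 CPM, and the part of this in the Pyy values was not tested. Without P10 replicate 1 the log2 fold change was 0.40.

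The TSS-class ACS of Pyy, inside the gene at chr10:89837795-89838128, had 2.89, 2.14 and 4.64 CPM in adults and 4.46, 4.07 and 3.12 CPM in P10. The ages overlapped, with Adult replicate 6 the highest of all 6 libraries. Its log2 fold change of -0.29 (SE 0.33, 95% interval -0.97 to 0.39, FDR = 0.691 by edgeR) had the smallest p-value among the Pyy ACS. Per kilobase it stood at the 10.8 percentile of TSS-class ACS in adults and the 11.2 percentile in P10, and the distal ACS at the 89.4 and 94.5 percentile of its class. The remaining distal ACS, 13.5 kb upstream, had a log2 fold change of 0.28 (SE 0.38) with Adult replicate 6 the lowest library at 1.03 CPM.

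Ppy, the pancreatic polypeptide gene, was the nearest gene of none of the ACS. In RefSeq it lies between Mpp2 and Pyy. On Rn5 the last ACS assigned to Mpp2 ended at 89820382 on chromosome 10 and the first ACS assigned to Pyy began at 89837795, and the 17412 bp between them held 0 ACS. The table lists only regions called as peaks, so this gap gives no level for Ppy.

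Ghrl, the ghrelin gene, had no TSS-class ACS and became more open in adults on its upstream side. The ACS 2.1 kb upstream, at chr4:208976565-208977258, had 33.5, 29.1 and 26.0 CPM in adults and 15.8, 10.9 and 12.8 CPM in P10. The 3 adult libraries were all above the 3 P10 libraries. Its log2 fold change was 1.16 (SE 0.20, 95% interval 0.76 to 1.57, FDR = 0.000244 by edgeR), a 2.24-fold higher accessibility in adults, and all 6 fits without 1 library called it Up with values from 1.03 to 1.30. It moved from the 65.8 percentile of proximal ACS per kilobase in P10 to the 91.2 percentile in adults.

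The other ACS of Ghrl, at chr4:208969085-208969711 and 845 bp past the end of the gene, had 13.2, 12.5 and 12.6 CPM in adults and 14.9, 11.0 and 10.3 CPM in P10. It was not called, with a log2 fold change of 0.08 (SE 0.22, 95% interval -0.37 to 0.53, FDR = 0.889 by edgeR). The log2 ratio of upstream to downstream counts was 1.20 ± 0.15 in adults and 0.13 ± 0.17 in P10 (SD, n = 3), a description made after the call was known. In P10 both sides were about equally open, and in adults the upstream side exceeded the downstream side in every library.

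Hhex, the delta cell regulator, was more open in P10 at both TSS-class ACS and at its distal ACS. The ACS over the gene start, chr1:263583524-263584078, had 7.59, 9.64 and 5.80 CPM in adults and 10.7, 17.5 and 13.2 CPM in P10. All P10 libraries were above all adult libraries, the log2 fold change was -0.83 (SE 0.25, 95% interval -1.34 to -0.32, FDR = 0.032 by edgeR), and P10 was 1.78-fold higher. The call was lost without P10 replicate 2, the highest library, with a value of -0.65 and an FDR of 0.232. The ACS moved from the 49.6 percentile of TSS-class ACS per kilobase in P10 to the 23.5 percentile in adults.

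The ACS inside Hhex, 508 bp from the start at chr1:263584496-263584766, had 1.90, 2.34 and 2.32 CPM in adults and 3.35, 4.14 and 3.59 CPM in P10. This gave a log2 fold change of -0.76 (SE 0.33, FDR = 0.172 by edgeR). The distal ACS 21.4 kb from the start, chr1:263605363-263606077, which was the most open ACS of the gene, had 14.0, 10.9 and 10.4 CPM in adults and 17.2, 15.5 and 17.1 CPM in P10. Its log2 fold change was -0.49 (SE 0.21, FDR = 0.164 by edgeR). The ages did not overlap in either ACS, but both lay close to the FDR limit and each was called in 2 of the 6 fits without 1 library. The proximal ACS inside the gene, 2.6 kb from the start, was not called, with a log2 fold change of -0.0045 (SE 0.27, 95% interval -0.55 to 0.54).

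Rbp4, the retinol carrier gene, had all adult libraries below all P10 libraries at each of its 3 ACS, of which 2 were called Down. The distal ACS 13.8 kb from the gene start, at chr1:264280351-264280595, had 0.813, 0.682 and 0.773 CPM in adults, from 9, 7 and 6 integrations, and 1.91, 4.35 and 2.80 CPM in P10, from 41, 61 and 53 integrations. The log2 fold change was -1.97 (SE 0.44, 95% interval -2.86 to -1.07, FDR = 0.00355 by edgeR), a 3.91-fold higher accessibility in P10, and all 6 fits without 1 library called it Down with values from -2.23 to -1.64. The adult counts there included the lowest of the 18 ACS.

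The ACS over the Rbp4 start, chr1:264293682-264294648, was the most open ACS of the gene with 8.77, 11.7 and 8.25 CPM in adults and 12.8, 13.1 and 15.2 CPM in P10. It was called Down at a log2 fold change of -0.51 (SE 0.22, FDR = 0.174 by edgeR), close to the limit and called in 2 of the 6 fits without 1 library. The ACS at 11.2 kb, chr1:264283020-264283551, had no overlap between the ages either, but its FDR of 0.226 (log2 fold change -0.56, SE 0.27) lay just beyond the limit.

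When the integrations of all ACS of a gene were summed, the edgeR test over 14776 genes called 10.5% of genes Up and 7.63% Down. Ghrl rose from 25.1 ± 3.84 CPM in P10 to 42.0 ± 1.79 CPM in adults (SD, n = 3), a log2 fold change of 0.74 (SE 0.14, FDR = 0.00683). Hhex fell from 40.5 ± 4.48 to 27.8 ± 2.21 CPM (-0.54, SE 0.14, FDR = 0.033) and Rbp4 from 24.3 ± 3.42 to 15.2 ± 2.36 CPM (-0.66, SE 0.18, FDR = 0.0359). Sst had 120 ± 2.90 CPM in P10 and 135 ± 18.1 CPM in adults (0.17, SE 0.12, FDR = 0.415), and Pyy 26.6 ± 10.7 and 24.8 ± 6.77 CPM (-0.09, SE 0.23, FDR = 0.852). Of the delta cell genes, Hhex and Rbp4 fell and the sum of Sst was not called. The call of Hhex was lost without P10 replicate 2 (-0.46, FDR = 0.222), and Sst was called Up without Adult replicate 5 (0.28, FDR = 0.170).

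Which ACS are counted for a gene changed these sums. With all ACS within 100 kb of the gene, 13 to 17 ACS per gene whatever their nearest gene, the log2 fold changes were -0.20 for Hhex (FDR = 0.325) and -0.25 for Rbp4 (FDR = 0.224), and neither was called. Ghrl was still called Up at 0.26 (FDR = 0.184), Pyy was called Down at -0.34 (FDR = 0.161), and Sst was not called at 0.14 (FDR = 0.527).

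**Figure D4:**
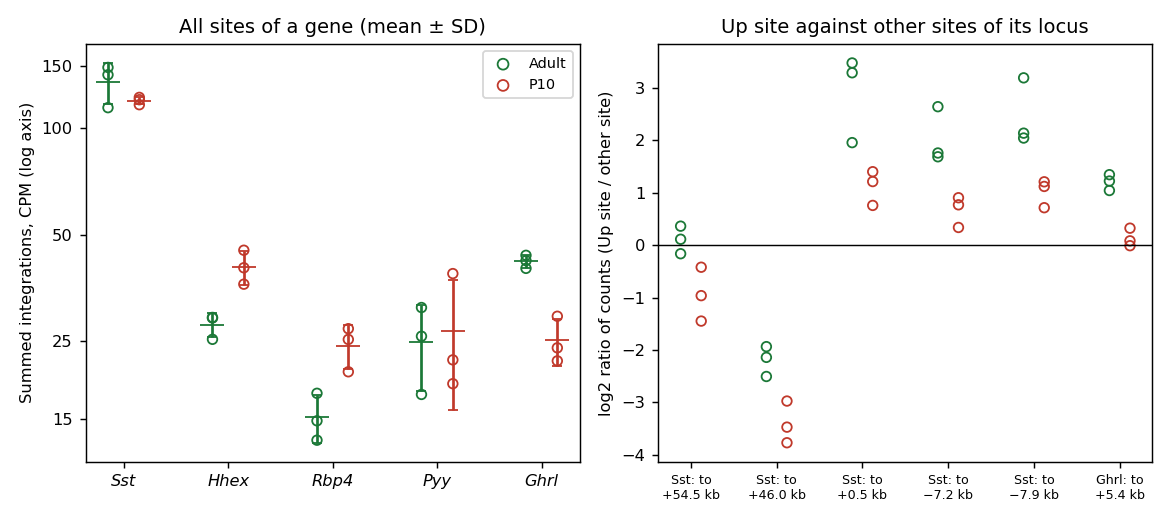
Left, integrations summed over all ACS of a gene (CPM, log axis) per library, with mean ± SD for each age. Right, log2 ratio of the count in the Up ACS of Sst (at 50.6 kb) or Ghrl (2.1 kb upstream) to another ACS of the same gene in each library. Adult libraries (green) lie above P10 libraries (red) for Ghrl in the left panel and in all 6 ratios, and below them for Hhex and Rbp4 in the left panel.

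Per kilobase of ACS the sums ranked Sst, Ghrl, Pyy, Hhex, Rbp4 in adults, at 47.8 ± 6.41, 31.8 ± 1.35, 22.1 ± 6.03, 14.5 ± 1.15 and 8.74 ± 1.36 CPM per kb (SD, n = 3). In P10 Sst had 42.4 ± 1.03, Pyy 23.7 ± 9.49, Hhex 21.2 ± 2.34, Ghrl 19.0 ± 2.91 and Rbp4 13.9 ± 1.96 CPM per kb. Sst led and Rbp4 came last at both ages. In P10 the levels of Pyy, Hhex and Ghrl lay within their SDs of each other, while in adults Ghrl stood above Hhex.

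The share of a gene's integrations that fell in its TSS-class ACS differed widely between genes and less between ages. It was 2.0 ± 0.93% in adults and 3.04 ± 0.25% in P10 for Sst, and 14.8 ± 10.8% and 15.5 ± 3.94% for Pyy (SD, n = 3). The adult share of Pyy rested on Adult replicate 6 at 27.3%, with 8.70% and 8.43% in the other two, and the difference between the ages went from -0.71 to -6.95 percentage points without that library and to 2.47 without Adult replicate 5. For Hhex it was 35.2 ± 5.93% and 42.8 ± 5.36%, and for Rbp4 62.4 ± 6.31% and 56.7 ± 4.06%. In none of these 4 genes did the ages separate (exact permutation test, two-sided, p = 0.3, 1, 0.2 and 0.3 in the order given, 0.4, 1, 0.4 and 0.4 after Benjamini-Hochberg adjustment over the 4 genes, with 0.1 the smallest p that 3 against 3 libraries can give). Of the integrations in ACS assigned by distance, the TSS-class ACS thus held a few percent for Sst and most for Rbp4. These shares depend on that assignment. Within 100 kb, 7 of 13 ACS around Sst and 12 of 15 around Rbp4 had another nearest gene.

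The choice of library size moved all values together. When TMM factors were left out and column sums used, the whole table had 10447 Up and 10732 Down ACS in place of 12504 and 6738. With the total sequenced reads of each library as library size it had 1062 Up and 61663 Down, as the median log2 fold change of all ACS shifted by -0.83. None of the 18 ACS was then called Up and 15 were called Down. Relative to the median of all ACS under that scaling, the Up ACS lay at 1.24 for Sst and 1.15 for Ghrl, the distal ACS of Rbp4 at -1.91 and the ACS over the Hhex start at -0.79.

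The genes whose summed log2 CPM most resembled that of each gene were found by Pearson correlation over the 6 libraries among 8446 or 8447 other genes with at least 3 ACS, as a description, since all points share the libraries and their scaling. For Pyy they were Gipr, the receptor of the incretin GIP (r = 0.999), and Rsph1 (r = 0.997). For Sst they were Zfp292 (0.985) and Gnpnat1 (0.984), for Hhex Polr3e (0.990) and Lzts2 (0.985), for Rbp4 Cst7 (0.995) and Syt9 (0.988), and for Ghrl Ryk (0.997) and Bin1 (0.994).

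Other genes linked to the same cells were read from lists, by calls per ACS. The shares Up and Down were 9.38% and 8.59% for the delta list and 10.2% and 12.7% for the PP list. They were 10.9% and 14.5% for the epsilon list and 11.3% and 12.9% for the receptor list, beside 12.3% and 6.63% of all ACS. The 12 genes of the delta list are not all particular to delta cells, as they include the beta cell factor Pdx1. Of these genes, 11 had ACS, and 12 of their 128 ACS were Up and 11 Down, with a median log2 fold change of -0.08. Chosen after their values were seen, Casr, the calcium-sensing receptor, had 3 of 8 ACS Up and 0 Down, and Lepr, the leptin receptor, had 3 of 10 Down and 0 Up.

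Of 8 PP cell genes, 6 had ACS, and 12 of 118 were Up and 15 Down, with a median of -0.11. The strongest call was an ACS 375494 bp upstream of Etv1, an ETS family transcription factor, with 10.2 ± 1.32 CPM in adults and 2.55 ± 0.81 CPM in P10 (log2 fold change 1.99, SE 0.29, FDR = 3.4e-05). Meis2, a homeobox gene chosen after its values were seen, carried 12 of the 15 Down calls and 4 of the Up calls among its 59 ACS. Of 6 epsilon cell genes, 4 had ACS, and 6 of 55 were Up and 8 Down, with a median of -0.16. The strongest call was the ACS 1620 bp upstream of Fgf12, with 8.48 ± 1.86 CPM in adults and 16.7 ± 2.98 CPM in P10 (-0.97, SE 0.23, FDR = 0.00684). Mboat4, which encodes the enzyme that acylates ghrelin, had a single ACS and no call, beside the Up ACS of Ghrl.

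Of 11 receptor genes for the products of these genes, counting Npy4r and its older symbol Ppyr1 as 1 gene, 10 had ACS, and 7 of 62 were Up and 8 Down, with a median of -0.14. The strongest call lay 25289 bp upstream of Npy4r, the receptor of pancreatic polypeptide, with 27.2 ± 4.10 CPM in adults and 8.76 ± 1.63 CPM in P10 (1.64, SE 0.21, FDR = 8.6e-06). By gene, and chosen after the values were seen, Npy4r had 4 of 7 ACS Up and 0 Down, whereas Npy1r, a receptor of peptide YY and neuropeptide Y, had 3 of 5 Down and 0 Up and Sstr1, a somatostatin receptor, 3 of 13 Down and 0 Up. Ghsr, the ghrelin receptor, which stands in both the delta cell and the receptor list, had 0 of 10 ACS called. No list was tested as a whole.

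**Figure D5:**
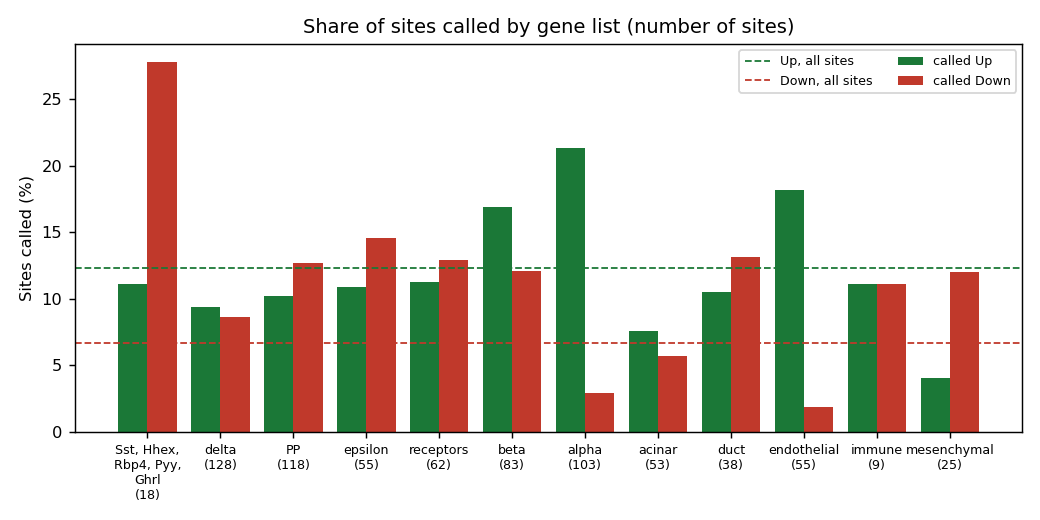
Share of ACS called Up (green) and Down (red) in percent for the 5 genes and for each list of other genes, with the number of ACS in brackets and the shares over all ACS as dashed lines (12.3% Up and 6.63% Down). The 5 genes have 2 Up and 5 Down calls of 18. The alpha and endothelial lists have the highest Up shares, 21.4% and 18.2%. Irx1 and Irx2 hold 13 and 6 of the 22 Up calls of the alpha list, and Cdh5 6 of the 10 of the endothelial list.

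Markers of the other cells in the preparation were also summed over their ACS, with no test of a list. Here 5 endothelial genes had 390 to 470 CPM in adults and 350 to 361 CPM in P10, with 10 of 55 ACS Up and 1 Down. The sums of 5 alpha cell genes were 858 to 987 CPM in adults and 696 to 790 CPM in P10 (22 of 103 ACS Up, 3 Down), those of 7 acinar genes 365 to 399 and 337 to 362 CPM (4 of 53 Up, 3 Down), and those of 4 duct genes 244 to 277 and 212 to 236 CPM (4 of 38 Up, 5 Down). In these 4 sums over all ACS the ages did not overlap, with adults higher. Over TSS-class ACS alone the order was not the same, since the duct genes had 17.5 to 20.2 CPM in adults and 24.7 to 34.4 CPM in P10, and the ages overlapped for the endothelial genes (23.5 to 31.7 and 28.9 to 35.5 CPM), the alpha cell genes (66.9 to 86.7 and 74.0 to 87.0 CPM) and the acinar genes (18.4 to 27.1 and 24.2 to 29.3 CPM). The ages overlapped for 6 beta cell genes at 848 to 991 and 808 to 1091 CPM (14 of 83 Up, 10 Down), for 3 immune genes at 56.3 to 75.9 and 46.0 to 59.8 CPM (1 of 9 Up, 1 Down), and for 4 mesenchymal genes at 115 to 132 and 124 to 135 CPM (1 of 25 Up, 3 Down). The delta, PP and epsilon lists overlapped as well, at 970 to 1103 and 935 to 1093 CPM, 846 to 998 and 873 to 923 CPM, and 366 to 397 and 328 to 395 CPM. At their TSS-class ACS alone the PP genes (7 ACS) had 121 to 132 CPM in adults and 143 to 153 CPM in P10. The epsilon genes (2 ACS) had 5.78 to 7.89 and 8.62 to 9.90 CPM, and the receptor genes (12 ACS) 76.1 to 81.5 and 89.6 to 96.4 CPM. In these sums all adult libraries were below all P10 libraries, whereas the delta genes (12 ACS) overlapped at 158 to 186 and 174 to 182 CPM. Over all 11055 TSS-class ACS the median log2 fold change was also negative, at -0.10, with 2.73% Up and 7.87% Down. The part of the listed cells in the Up ACS of Sst and Ghrl and the Down ACS of Hhex and Rbp4 was not tested.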

How the data were processed

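ATAC-seq libraries of 3 adult rats and of pups of 3 litters at P10 were compared. Per the study's methods, the authors aligned reads to Rn5 with BWA 0.7.13, discarded alignments of low mapping quality and to the mitochondrial genome, ran MACS2 2.1.1 on the joined samples of each age, and deposited raw counts of Tn5 integrations, made with pyDNase, for each library and ACS together with its nearest gene. FastQC 0.11.2 and SAMtools 1.3 are also named in the submitters' processing notes. Removal of PCR duplicates is not given in the sources used here, so intervals cover the spread of the counts as deposited. Peaks were not called per library, and every ACS has a count in every library. The deposited table also holds the authors' own log2 fold change, log2 CPM, F, p-value and FDR per ACS, which were not used. Columns were matched to adult and P10 libraries by the letter and replicate number in their names, and the direction of every difference rests on that match.

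Of 101941 entries, 101603 are distinct ACS. All of them entered 1 fit, with no filter on low counts. The libraries were tested with the quasi-likelihood F test of edgeR 4.0.16 in R 4.3.3, TMM factors, age as the term and Benjamini-Hochberg adjustment. The SE was taken as the log2 fold change over the square root of F. The same fit was run on counts summed per nearest gene. Shares were compared by exact permutation of the 6 libraries. Counts of 101603 ACS were simulated with a log2 change of 1 set in 200 of them. The Adult against P10 fit called 41.5% of these in the right direction and 24 unchanged ACS. In the data 12504 ACS were called Up and 6738 Down. An FDR limit depends on the share of changed ACS, so the 41.5% does not carry over to the reported fit. Separate animals or litters stand behind the 6 libraries, 3 per age.

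Alternatives were column sums or total sequenced reads (from the study's quality table) as library sizes, DESeq2 1.42.0, limma voom 3.58.1, filterByExpr, a mean of at least 50 counts, an FDR under 0.05, all ACS within 100 kb, and leaving out each library. Named in full were every TSS-class ACS, the ACS of each gene with the highest mean CPM, every called ACS, and the ACS with the smallest p of a gene without a call. The other ACS are given by summary values. The gene lists (delta, PP and epsilon cells, receptors, and beta, alpha, acinar, duct, endothelial, immune and mesenchymal markers) come from textbook knowledge. The 6 genes and all lists were chosen with earlier results of these data known. Promoters are from RefSeq (GRCr8), where all 6 genes matched by symbol. No Rn5 genome was used here, so no letters of an ACS are printed. The ACS with the smallest p in the delta cell list is not reported here.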

Additional observations from a re-analysis of the deposited data

How the results depend on the processing

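No paired analysis was possible because the adult libraries carry replicate numbers 4 to 6 and the P10 libraries 1 to 3, so the ages share no number. Over the alternatives, single ACS kept direction and call in 164 comparisons, gained the call in 12, lost it in 16 and changed sign in 20. The summed genes kept both in 50, gained the call in 3, lost it in 3 and changed sign in 4.

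With total sequenced reads as library sizes, 0 of the 18 ACS were Up and 15 Down, and the sums were -0.67 for Sst and -0.98 for Pyy (both called Down) and -0.12 for Ghrl (not called). The signs of the Sst ACS at 54.5 kb (-0.62) and 46.0 kb (-0.79), the downstream ACS of Ghrl (-0.79) and the Pyy ACS at 13.5 kb (-0.56) turned, as the median of all ACS moved. Column sums gave -0.031 for the Sst ACS at 46.0 kb and -0.011 for the downstream ACS of Ghrl, a mean of at least 50 counts gave -0.026 and -0.000139, and limma voom gave 0.026 for the proximal ACS of Hhex. An FDR under 0.05 left 2 Down calls. Using all ACS within 100 kb gave -0.20 for Hhex, -0.25 for Rbp4 and -0.34 for Pyy. The difference in the TSS share was then -0.98 percentage points for Rbp4 and -3.77 for Hhex.

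Leaving out each library gave 2 Up calls in all 6 fits and 1 to 6 Down calls. There was 1 Down call without P10 replicate 2, 2 without P10 replicate 3 and 3 without Adult replicate 6. There were 4 without Adult replicate 4 or 5, and 6 without P10 replicate 1. Over all ACS the Down calls ranged from 3285 without P10 replicate 2 to 7215 without Adult replicate 5. The sums ranged from 0.10 to 0.28 for Sst, -0.63 to -0.46 for Hhex, and -0.29 to 0.28 for Pyy, which was 0.09 without Adult replicate 6 and 0.28 without P10 replicate 1. Single ACS that changed sign ranged from -0.17 to 0.13 (Hhex, proximal), -0.047 to 0.66 and -0.41 to 0.40 (Pyy, 13.5 and 15.4 kb), -0.053 to 0.24, -0.19 to 0.055 and -0.29 to 0.029 (Sst, 46.0, 7.2 and 7.9 kb) and -0.036 to 0.26 (Ghrl, downstream). None of these was called in the reported fit. The cause was not tested for any of these changes.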
